A study of Mus musculus with 14 samples.

Results

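The 10 genes described here are widely used markers of astrocytes: Gfap, Aqp4, Aldh1l1, Slc1a2, Slc1a3, Gja1, Aldoc, S100b, Sox9 and Fgfr3. They were chosen by gene symbol, and all 10 had values among the 16585 genes that were tested. RNA from the hippocampus of C57BL6 mice, 30 days old, was sequenced in 14 libraries. Wild-type mice and mice heterozygous for a KMT2D allele (KMT2D+/bGeo) received TAK-418, an LSD1 inhibitor, or the methylcellulose vehicle alone. The dose was 1 mg/kg/day by gavage for 2 weeks, starting at 2 weeks of age. Vehicle was given to 3 wild types and 3 mutants, and TAK-418 to 5 wild types and 3 mutants, whereas the series description gives smaller groups than 5. The bGeo allele is a gene trap carried in every cell of the animal, so that the mutation is not confined to astrocytes. No label says that the libraries of a group came from separate animals, and the p-values measure only the spread between these libraries.

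Astrocytes are the glial cells that take up glutamate and potassium around synapses, line blood vessels with their endfeet, and are joined to each other by gap junctions. In the hippocampus their marker genes fall into structural genes, transporters and channels, metabolic enzymes, and the factors and receptors that specify the lineage. GFAP is in addition a marker of the radial glia-like stem cells of the dentate gyrus, and its level rises when astrocytes become reactive. In bulk tissue, fewer astrocytes and less RNA per astrocyte cannot be told apart.

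Levels are abundances of assembled transcripts per length, summed per gene and scaled between libraries, and they serve as relative values. Wild-type TAK-418 library 1 was the deepest, with a relative depth of 168 M, and the other 13 had 35.1 M to 59.98 M. Kmt2d, the mutated gene, had vehicle levels of 13.8 to 14.2 in wild types and 10.6 to 14.4 in mutants, and TAK-418 levels of 12.5 to 17.99 in wild types and 9.34 to 14.6 in mutants. These ranges overlap, and a value over the whole gene does not separate the intact from the trapped allele. Kdm1a, which encodes LSD1, lay between 29.9 and 35.8. Choroid plexus genes stood apart in 4 libraries. Ttr, which encodes transthyretin of the choroid plexus, was at 4907 in mutant vehicle library 1, 6370 in wild-type vehicle library 3, 884 in mutant vehicle library 3 and 590 in mutant TAK-418 library 1, against 6.49 to 36.2 elsewhere. Astrocyte results are also given without the first 2, called choroid-rich here, and without all 4, where a member's unadjusted call differed. Without all 4 the mutant vehicle group has 1 library, which is assumed to vary like the other groups. The members' differences are then given without p.

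Among the genes of structure and contact, Gfap encodes the intermediate filament protein of astrocytes (ENSMUSG00000020932.14, GRCm38 chromosome 11, 102887336 to 102900912, minus strand). Its level was 166, 181 and 168 in the wild-type vehicle libraries and 163, 197 and 179 in the mutant vehicle libraries. It was 180, 185, 181, 173 and 175 in the wild-type TAK-418 libraries and 174, 160 and 179 in the mutant TAK-418 libraries. The lowest and the highest value differed 1.23-fold, and every group overlapped every other. Gja1 encodes connexin 43, the main gap junction protein of astrocytes (ENSMUSG00000050953.10, chromosome 10, 56377330 to 56402513, plus strand). Gja1 was at 106, 113 and 99.6 in wild-type vehicle, 96.1, 117 and 105 in mutant vehicle, and under TAK-418 at 118, 111, 116, 116 and 112 in wild types and 106, 102 and 107 in mutants. All 5 wild-type TAK-418 libraries lay above the 3 mutant TAK-418 libraries, while the vehicle groups overlapped.

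Among transporters and channels, Slc1a2 and Slc1a3 encode the glutamate transporters GLT-1 and GLAST, which clear glutamate from the synaptic cleft. Slc1a2 (ENSMUSG00000005089.15, chromosome 2, 102658659 to 102790784, plus strand) had a level of 323 ± 20.1 (SD, n = 3) in wild-type vehicle and 308 ± 14.8 (n = 3) in mutant vehicle. Under TAK-418 it was 352 ± 34.1 (n = 5) in wild types and 320 ± 13.6 (n = 3) in mutants. The highest library, wild-type TAK-418 library 5 at 398, had the gene assembled as 2 overlapping pieces. Expressed per fixed length, that library stood at 357, within the range of 303 to 360 of all libraries. Slc1a3 (ENSMUSG00000005360.14, chromosome 15, 8634124 to 8710764, minus strand) was the steadiest member, with a coefficient of variation of 3.94% over the 14 libraries and a range of 199.8 to 231. Aqp4 encodes the water channel of the endfeet (ENSMUSG00000024411.10, chromosome 18, 15389496 to 15410982, minus strand). Under vehicle Aqp4 was at 49.8 ± 6.35 in wild types and 50.5 ± 8.29 in mutants, and under TAK-418 at 55.3 ± 3.58 and 50.2 ± 4.22, with the same n. Its lowest values, 40.9 and 42.5, were in mutant vehicle library 1 and wild-type vehicle library 1.

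Among enzymes and calcium-binding proteins, Aldh1l1 encodes a folate-metabolizing dehydrogenase (ENSMUSG00000030088.15, chromosome 6, 90486427 to 90600203, plus strand). Aldh1l1 was at 20.5, 19.2 and 19.7 in wild-type vehicle and 20.4, 18.5 and 17.6 in mutant vehicle libraries. Under TAK-418 it was at 20.01, 20.4, 18.5, 18.2 and 20.4 in wild types and 18.4, 18.6 and 17.8 in mutants. The genotypes overlapped under either treatment. Aldoc encodes the brain form of the glycolytic enzyme aldolase (ENSMUSG00000017390.15, chromosome 11, 78322968 to 78327781, plus strand). It was the most abundant member per length, with a mean of 463 over the 13 libraries that list it. S100b encodes a calcium-binding protein (ENSMUSG00000033208.7, chromosome 10, 76253853 to 76261159, plus strand) and had the widest spread, from 17.9 to 68.8.

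Among lineage factors and receptors, Sox9 encodes the transcription factor that initiates gliogenesis (ENSMUSG00000000567.5, chromosome 11, 112782224 to 112787760, plus strand). It was the least abundant member, at 9.004 ± 1.62 in wild types and 8.66 ± 0.692 in mutants under vehicle, and 7.63 ± 1.01 and 8.48 ± 0.599 under TAK-418. The 3′ end of the 3-exon Sox9 transcript took 13 positions over 2170 bases, and its length ran from 1819 to 3992 bases. Mutant vehicle library 1 had Sox9 assembled in 2 pieces, and its fixed-length value was 4.52 against 6.20 to 9.89 in the others. The coefficient of variation of Sox9 was 12.97% per assembled length and 17.95% per fixed length. Fgfr3 encodes a fibroblast growth factor receptor of astrocytes (ENSMUSG00000054252.18, chromosome 5, 33721674 to 33737068, plus strand). Its range was 26.1 to 36.1, and the highest value was in wild-type vehicle library 1. By mean level per length the order was Aldoc, Slc1a2, Slc1a3, Gfap, Gja1, Aqp4, S100b, Fgfr3, Aldh1l1 and Sox9. The ranges overlapped for the neighbours Aldoc and Slc1a2, Aqp4 and S100b, and S100b and Fgfr3. The other 6 neighbouring pairs had separate ranges over the libraries.

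**Figure D1:**
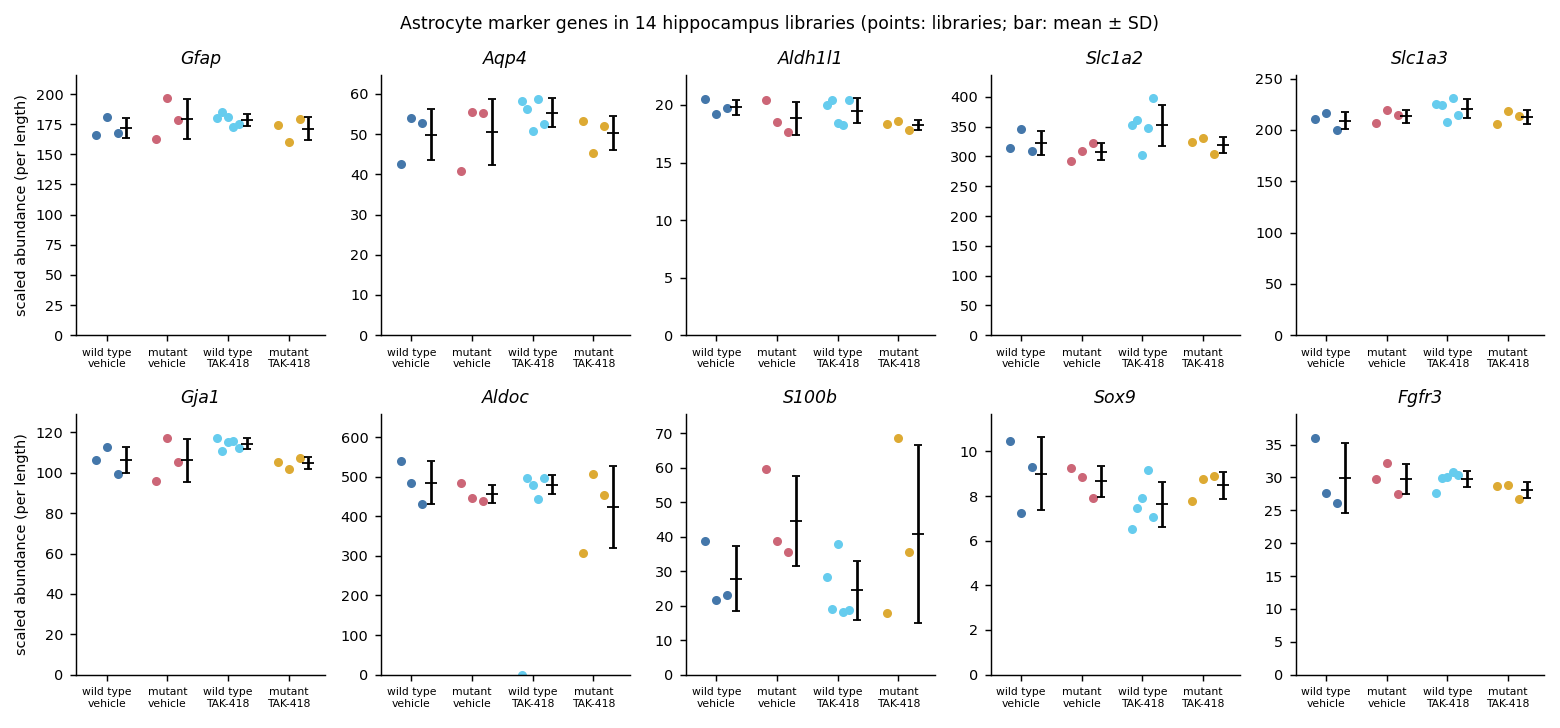
Scaled abundance per length (y axis, from 0) of the 10 astrocyte marker genes in each library of the 4 groups (x axis), with the group mean and SD of the libraries that list the gene beside the points. Most genes lie in a narrow band in all groups, whereas S100b spreads from 17.9 to 68.8 and Aldoc is listed at 0 in 1 wild-type TAK-418 library.

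The spread of S100b and Aldoc followed where the assembled transcript ended. S100b began at the same base, 76253858, in all 14 libraries, and had the same 3 exons. Its 3′ end took 6 positions, and the assembled length ran from 1372 to 5193 bases. In 2 mutant libraries the end lay 86 and 107 bases before the annotated gene end, and these libraries had the highest S100b levels, 68.8 and 59.6. In 5 libraries the end lay 3714 bases past the annotated end, and these had the lowest levels, 17.9 to 21.6. The longest form was found in 4 wild-type libraries and 1 mutant library. In another 5 libraries, 3 mutant and 2 wild type, the transcript was 2720 bases long and the level was 35.5 to 38.8. Once abundance was expressed over 1 fixed length, S100b ranged only from 26.8 to 35.7, and its coefficient of variation changed from 47.5% to 7.03%.

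**Figure D2:**
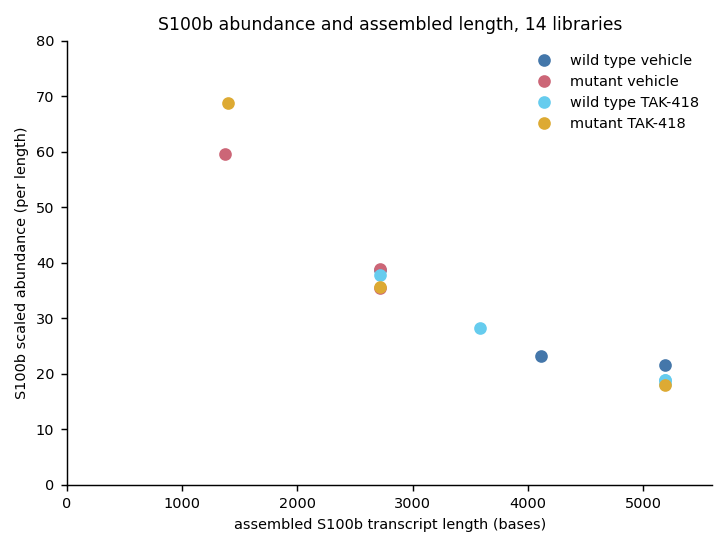
Scaled S100b abundance per length (y axis) against the assembled S100b transcript length in bases (x axis) in 14 libraries, coloured by group. The 2 shortest transcripts, 1372 and 1393 bases, have the highest abundances, and the 5 longest, 5193 bases, the lowest.

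Aldoc also began at 1 base, 78323122, in each of the 13 libraries with an Aldoc transcript. In wild-type TAK-418 library 1 it was joined with downstream exons into a transcript of 24 exons and 7671 bases (scaled abundance 117). Aldoc itself is therefore listed at 0 there. Mutant TAK-418 library 1 held a longer Aldoc transcript of 2236 bases, with the lowest listed level, 308, and a joined transcript of 20 exons at 29.3. The remaining 12 libraries lay between 433 and 541. The authors' deposited tables give Aldoc as 1 locus with Pigs and Unc119. That locus ends at 78349164, the 24-exon transcript at 78349041 and the 20-exon transcript at 78342662.

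The promoters of Gfap, S100b and Aldoc are shown, Gfap as the defining astrocyte gene. S100b and Aldoc were chosen because their 5′ end was fixed while their 3′ ends moved over 3821 and 779 bases. The 5′ end was also fixed for Fgfr3 and the main Slc1a3 transcript, whose 3′ ends moved over 194 and 37 bases. The sequences are RefSeq windows of GRCm38.p6, 250 bases before to 50 after the RefSeq start, read 5′ to 3′ on the gene's strand. The Gfap window is chr11:102897151-102897450 (minus strand), the S100b window chr10:76253586-76253885 and the Aldoc window chr11:78322823-78323122 (plus strand). Capitals mark matches, on either strand, to the STAT motif TTCNNNGAA or the NFI half-site TTGGCA, which do not overlap each other. STAT and NFI factors are known for their part in astrocyte gene expression.
Gfap: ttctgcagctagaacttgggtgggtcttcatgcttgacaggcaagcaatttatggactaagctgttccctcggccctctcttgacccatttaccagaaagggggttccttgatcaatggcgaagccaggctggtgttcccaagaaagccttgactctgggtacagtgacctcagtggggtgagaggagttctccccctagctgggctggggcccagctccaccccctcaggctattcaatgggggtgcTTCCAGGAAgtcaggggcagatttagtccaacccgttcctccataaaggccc
S100b: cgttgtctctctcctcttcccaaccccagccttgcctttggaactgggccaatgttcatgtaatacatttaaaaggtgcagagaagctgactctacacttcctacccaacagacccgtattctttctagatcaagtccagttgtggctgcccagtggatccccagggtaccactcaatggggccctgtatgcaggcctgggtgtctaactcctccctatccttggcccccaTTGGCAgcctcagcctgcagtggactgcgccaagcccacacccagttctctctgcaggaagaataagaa
Aldoc: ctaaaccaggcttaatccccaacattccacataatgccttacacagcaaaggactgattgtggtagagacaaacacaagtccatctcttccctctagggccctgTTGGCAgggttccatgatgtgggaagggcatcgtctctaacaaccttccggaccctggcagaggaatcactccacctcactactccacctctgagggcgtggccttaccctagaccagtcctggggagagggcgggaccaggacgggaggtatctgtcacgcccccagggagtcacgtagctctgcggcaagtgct
Gfap held a STAT match at base 249 of the window, S100b an NFI match at base 232 and Aldoc an NFI match at base 105. Of all 32851 RefSeq promoter windows, 8.30% held TTCNNNGAA and 14.1% held TTGGCA. Windows of 8 members were found, 10 in all. Of these 10, 3 held a STAT match, those of Gfap and Slc1a3 and a second Aldoc window, and 2 held an NFI match. The windows of Slc1a2, Fgfr3, Aldh1l1 and Gja1 held neither. The only Slc1a2 window belongs to a RefSeq start at 102706438, whereas the 11-exon Slc1a2 transcript began between 102658725 and 102658780. The promoter of the assembled Slc1a2 transcript was therefore not searched. A second Fgfr3 window belongs to a RefSeq start at 33722306, downstream of the assembled start at 33721828. The SOX motif ACAAAG was in 0 of the 10 and the TATA box TATAAA in 1 (Slc1a3), against 18.7% and 13.6% of all windows. The second Aldoc window, chr11:78323948-78324247 and not shown, belongs to a RefSeq start downstream of the assembled one and held 2 STAT matches. The assembled S100b transcript began 22 bases, the Aldoc transcript 49 bases and the Gfap transcripts 106 to 141 bases downstream of these RefSeq starts.

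No member differed between genotypes or treatments past the threshold of 0.05 on the Benjamini-Hochberg adjusted p over all 16585 genes (limma). This held for all 7 contrasts, and no member had an unadjusted p below 0.05 in any of them. The background was low for adjusted calls. Over all genes, 0.0% were called for genotype under vehicle and for TAK-418 in wild types, 0.00603% for TAK-418 in mutants, for the genotype main effect and for the interaction, and 0.0121% for genotype under TAK-418 and for the TAK-418 main effect. An unadjusted p below 0.05 was found for 5.49% of all genes for genotype under vehicle, 4.39% for TAK-418 in mutants, 8.42% for TAK-418 in wild types and 4.94% for genotype under TAK-418. The share was 5.88% for the genotype main effect, 8.30% for the TAK-418 main effect and 4.41% for the interaction. For 10 genes these shares amount to less than 1 gene, so that the absence of a member is not read as a result about the list.

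The first question was whether the heterozygous mutation changed the astrocyte genes under vehicle. Of the 10 members, 5 were higher and 5 lower in mutants, with a median log2 difference of 0.00, as over all genes. S100b, Aldoc and Sox9 are given apart because of their assembled ends or pieces, described above. The 7 other members differed by -0.07 to 0.06 on the log2(level + 0.9) scale, both per assembled and per fixed length. Their 95% confidence intervals lay between -0.25 and 0.28. Sox9 differed by -0.04 per assembled length and by -0.37 (SE 0.19, interval -0.78 to 0.04) per fixed length. Per fixed length, mutant vehicle library 1 was at 4.52, against 7.92 and 8.04 in the other mutant vehicle libraries. This low library enters each fixed-length Sox9 difference below that uses the mutant vehicle group. Gfap differed by 0.06 (SE 0.07, 95% interval -0.09 to 0.20) and Slc1a3 by 0.03 (SE 0.05, interval -0.07 to 0.14). Neither difference was larger than the spread between libraries.

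In mutants, TAK-418 against vehicle gave log2 differences of -0.08 to 0.05 for these 7 members, with intervals between -0.30 and 0.27. Sox9 had -0.03 per assembled length and 0.29 (interval -0.12 to 0.71) per fixed length, the opposite direction. Here 2 of the 10 members were higher under TAK-418, against 50.9% of all genes. In wild types, TAK-418 gave -0.02 to 0.16 for the 7 members, and 6 of 10 members were higher, against 49.0% of all genes. Per fixed length the 7 members ran from -0.05 to 0.14, with Slc1a2 at 0.07 against 0.12 per assembled length. Gja1 differed by 0.11 (SE 0.06, interval -0.02 to 0.23) and Sox9 by -0.21 (SE 0.12, interval -0.46 to 0.04) in wild types. The smallest limma adjusted p of any member was 1 in mutants and 0.648 in wild types. TAK-418 in mutants and in wild types was compared in the interaction, where the 7 members' differences ran from -0.15 to -0.02 and the smallest limma adjusted p of a member was 0.9753. Without the 2 choroid-rich libraries, Aqp4 had an interaction of -0.34, against -0.15 with all 14. The unadjusted p of Aqp4 was then 0.0407 and the adjusted p 0.905 (limma). Sox9 had an interaction of 0.18 per assembled length and 0.52 (SE 0.25, interval -0.04 to 1.07) per fixed length, where mutant vehicle library 1 was low. Without all 4 libraries high in choroid plexus genes, TAK-418 in mutants gave -0.21 for Gfap and -0.16 for Gja1, against -0.06 and -0.01 with all 14. The interaction was then -0.25 for Gfap and -0.22 for Gja1, against -0.12 for either gene with all 14. These differences rest on 1 mutant vehicle library, library 2, which had the highest Gfap level of the 14, 196.5. Its Gja1 level was 117.2, against a highest value of 117.5. Mutant TAK-418 library 1 was also left out.

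Gja1 was the only member whose groups did not overlap in any contrast. Under TAK-418 it was 105 ± 2.78 (SD, n = 3) in mutants and 114 ± 2.68 (SD, n = 5) in wild types. The log2 difference was -0.12 (SE 0.06, 95% interval -0.25 to 0.00). The limma unadjusted p was 0.0546 and the adjusted p 0.924, and an exact two-sided permutation test gave p = 0.0179, the smallest value this design can give. Over all genes, 4.59% did not overlap in this contrast, and 1 of 10 members is not read as a result about the list. Per fixed length the Gja1 groups did not overlap either. Without the 2 choroid-rich libraries, which belong to other groups but enter the shared variance, the unadjusted limma p was 0.0156 and the adjusted p 0.872. Without all 4 it was 0.0177 and 0.584, and S100b in this contrast had 0.0252 and 0.606 per assembled length, with a difference of 1.06. In the same contrast, 3 of 10 members were higher in mutants, against 51.1% of all genes, the range over the 7 members was -0.14 to -0.05, and Sox9 had 0.14 on the assembled-length scale.

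Averaged over both treatments, the mutants differed from the wild types by -0.10 to 0.00 over the 7 members, with intervals between -0.24 and 0.12. Sox9 differed by 0.05 per assembled length and by -0.11 (interval -0.39 to 0.17) per fixed length. Aldh1l1 differed by -0.08 (SE 0.04, 95% interval -0.17 to 0.01), and by -0.07 per fixed length. It differed by -0.19 with the highest transcript only, which takes 1 of its 2 structures per library. Without scaling it differed by -0.17, a value that keeps the differences in size factor between libraries. Its limma unadjusted p was 0.0767 and its adjusted p 0.858, and a permutation of genotype within each treatment gave an exact two-sided p of 0.0634. Without the 2 choroid-rich libraries the difference was -0.11, with an unadjusted p of 0.0285 and an adjusted p of 0.968. S100b differed by 0.63 per assembled length (SE 0.29, interval -0.01 to 1.26, limma adjusted p = 0.845), and by -0.09 per fixed length, the opposite direction. Averaged over both genotypes, TAK-418 gave -0.04 to 0.09 over the 7 members, and 4 of 10 were higher.

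**Figure D3:**
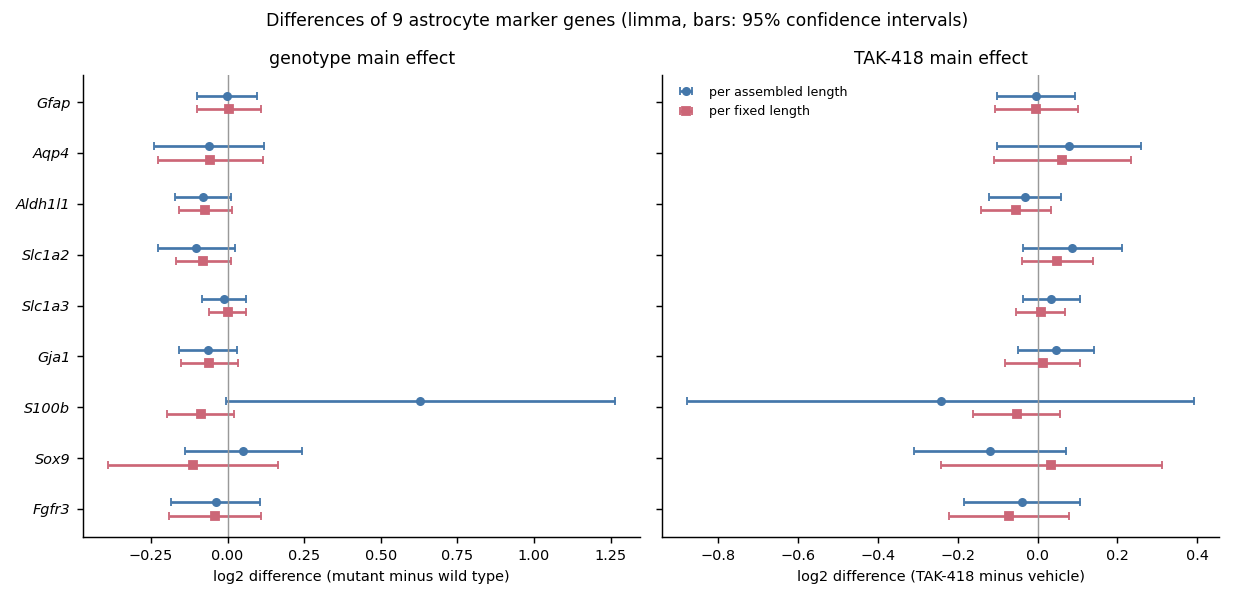
Log2 differences with 95% confidence intervals (x axis) of 9 astrocyte marker genes (y axis) for the genotype main effect (left) and the TAK-418 main effect (right), per assembled length and per fixed length. All intervals include 0, and S100b moves from 0.63 to -0.09 in the left panel when 1 length is used. Aldoc is not drawn because it is listed at 0 in 1 library.

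The authors' deposited tables, with 1 value per group and no spread, held 10 tested loci with a member in each of 4 comparisons. None was called at q below 0.05. In those tables, 0.218% of tested loci were called for mutant against wild type under TAK-418, 0.611% for mutant vehicle against wild-type TAK-418, 0.324% for mutant TAK-418 against wild-type vehicle and 0.224% for mutant against wild type under vehicle. The tables share groups and are not independent of each other. In the authors' deposited table for genotype under TAK-418, Aqp4 had the smallest p, 0.0399 (q = 0.808), with FPKM of 37.8 in wild types and 33.6 in mutants. The Gja1 locus stood at 85.1 and 80.2 FPKM in the same deposited table (q = 0.819). For S100b the authors' deposited tables gave 52.8 FPKM in wild-type vehicle and 51.5 in mutant vehicle, and 50.9 in both TAK-418 groups.

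Pairs of members were compared over the 14 libraries with Pearson's r on the log2 levels, 45 pairs in all. None passed an adjusted p of 0.05 by permutation. The highest were Gfap and Gja1 (r = 0.75, Spearman's rho = 0.70, permutation p = 0.0019 and 0.0077, adjusted p = 0.0855 and 0.158), Gfap and Aqp4 (r = 0.69, rho = 0.56, permutation p = 0.00626 and 0.0390, adjusted p = 0.0878 and 0.160) and Aqp4 and Gja1 (r = 0.68, rho = 0.62, permutation p = 0.0078 and 0.0211, adjusted p = 0.0878 and 0.158). Without the 2 libraries farthest from the median of the first gene, r was 0.71, 0.72 and 0.56. The lowest were Aqp4 and S100b (r = -0.70, rho = -0.59, permutation p = 0.00518 and 0.0306, adjusted p = 0.0878 and 0.158), Slc1a2 and Sox9 (r = -0.64, rho = -0.66, permutation p = 0.0132 and 0.0126, adjusted p = 0.0992 and 0.158) and Slc1a2 and S100b (r = -0.61, rho = -0.63, permutation p = 0.0193 and 0.0179, adjusted p = 0.124 and 0.158). Without the 2 farthest libraries these were -0.64, -0.54 and -0.49. With a fixed length the same 3 pairs had r = 0.21, -0.08 and 0.12, and the 3 highest pairs had 0.74, 0.52 and 0.58, and 0 of the 45 passed. The median r over the 45 pairs was -0.07, and 0.17 over the 28 pairs without S100b or Aldoc. Without scaling between libraries, 20 pairs passed the threshold, so that the count depends on the scaling. The pairs share libraries and scaling factors.

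**Figure D4:**
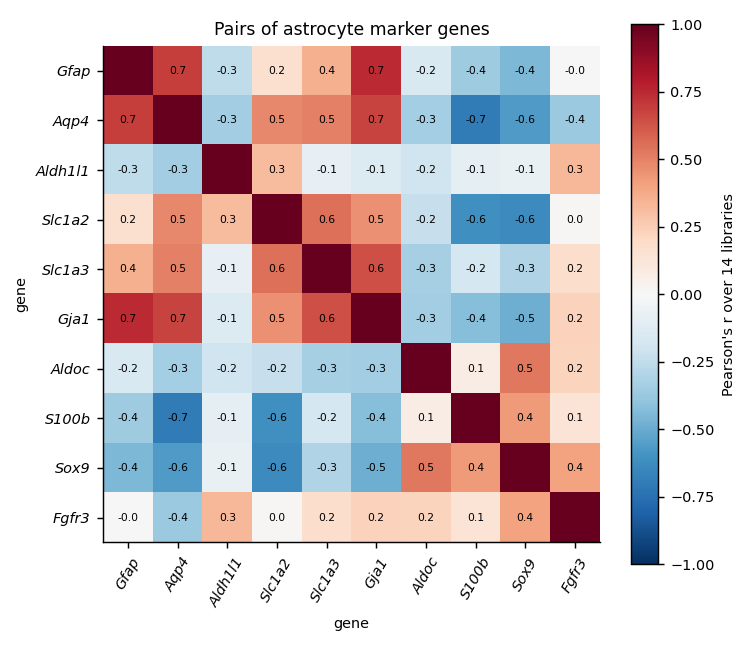
Pearson's r of each pair of astrocyte marker genes (both axes) over 14 libraries, on a colour scale from -1 to 1. Gfap, Aqp4 and Gja1 have the highest values with each other, 0.68 to 0.75, and S100b has its lowest, -0.70, with Aqp4, a pair at 0.21 when a fixed length is used.

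Among 10108 other genes with a mean level of at least 5, those most like the members' mean included Ntsr2 (r = 0.84), Mrpl21 (r = 0.82), Tmem167 (r = 0.75) and Tmem191c (r = 0.75), over 14 libraries. Ntsr2, a neurotensin receptor gene, was in the list of other astrocyte genes. The median r was 0.30 over 28 genes of that list and 0.04 over all genes compared. S100b and Aldoc, whose spread followed the assembled transcript ends, were among the members averaged. Their part in these r values was not tested.

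Further lists covered other astrocyte genes, reactive astrocyte genes and 8 other cell classes, 113 genes in all, and none of their genes was called in any contrast (smallest limma adjusted p = 0.164). Among 30 other astrocyte genes, 18 were higher in mutants under vehicle, with a median log2 difference of 0.02, and 19 were higher with TAK-418 in wild types, with a median of 0.03. With TAK-418 in mutants 9 of the 30 were higher, with a median of -0.05, and under TAK-418 7 were higher in mutants than in wild types, with a median of -0.04. The most abundant were Apoe, Sparcl1 and Mt3, with mean levels of 1096, 752 and 724. Apoe, a lipid carrier, ranged from 519 to 1384. Among 15 reactive astrocyte genes, 12 were higher in mutants under vehicle, with a median of 0.19, and 3 had an unadjusted p below 0.05. Over all genes 49.9% were higher and 5.49% had such a p. In the same contrast 9 of 10 choroid plexus and ependyma genes were higher, with a median of 0.55, and 5 of 7 leptomeninges genes, with a median of 0.23, and their part in the reactive list was not tested. Vim, an intermediate filament gene and 1 of the 3 most abundant of the list, was at 24.6, 24.0 and 26.7 in wild-type vehicle and 28.5, 30.4 and 28.9 in mutant vehicle libraries. These Vim values did not overlap, as was the case for 8.90% of all genes. The log2 difference of Vim was 0.22 (SE 0.06, 95% interval 0.08 to 0.35), with an unadjusted limma p of 0.00419 and an adjusted p of 0.677. Serpina3n, a protease inhibitor gene, and Hspb1, a small heat shock protein gene, had means of 38.0 and 7.20 over the 14 libraries.

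The lists of other cell types were compared as mean log2 deviations from each gene's mean, since bulk RNA holds all cells of the tissue. The neuron list, led by Snap25 with a mean level of 923, lay between -0.19 and 0.09 in all libraries. Snap25 itself was at 257 in wild-type TAK-418 library 1 and 415 in mutant vehicle library 3, against 968.5 to 1068 elsewhere. The list lay at -0.12 and -0.11 in these libraries, and the part of Snap25 in this was not tested. The 10 choroid plexus and ependyma genes ran from -0.81 to 2.52 in wild-type vehicle and from -0.69 to 2.76 in mutant vehicle libraries, and under TAK-418 from -0.75 to -0.53 in wild types and from -0.65 to 0.43 in mutants. Over the same libraries, the 8 astrocyte markers without S100b and Aldoc lay between -0.07 and 0.07. The lowest of these, -0.07, was mutant vehicle library 1, which had the highest choroid plexus deviation, 2.76, and in which 5 of the 8 markers lay below their own mean. A count of 5 was also found in other libraries, in all 4 groups, and mutant TAK-418 library 1 had 7. The reactive astrocyte list had its highest deviation, 0.28, in mutant vehicle library 1. The part of the choroid plexus RNA in the astrocyte values was not tested beyond leaving out 2 or all 4 of the libraries, where no member was called in any of the 7 contrasts. The oligodendrocyte precursor list ran from -0.52 to 0.50. In it Olig1 was at 1.69 to 2.91 in 6 libraries and at 67.3 to 86.0 in the other 8, while Gpr17 ranged from 21.8 to 37.6 and Sox10 from 18.1 to 26.9.

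**Figure D5:**
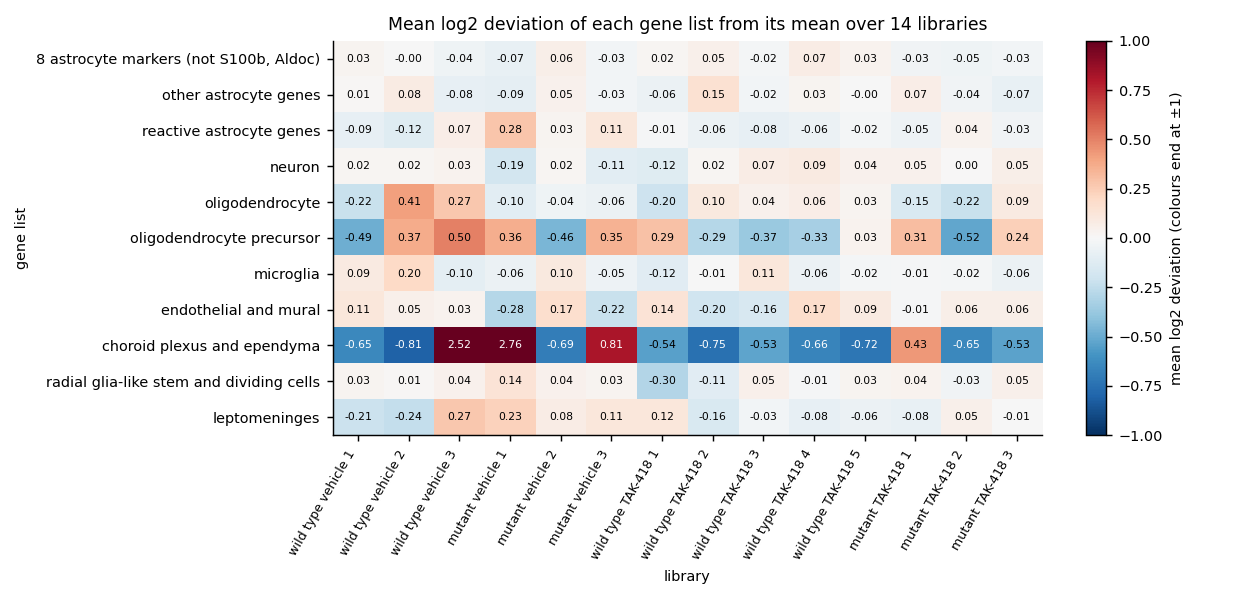
Mean log2 deviation of each gene list (y axis) from its mean over the 14 libraries, for every library (x axis), with colours ending at -1 and 1. The 8 astrocyte markers stay within -0.07 to 0.07, while the choroid plexus and ependyma list reaches 2.76 in mutant vehicle library 1 and 2.52 in wild-type vehicle library 3.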

How the data were processed

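The genes and lists were chosen with earlier results of these data known. Per the file headers, the authors assembled each library's transcripts with CLASS 2.1.7, and the deposited score of a transcript is its abundance per length. The submitters' processing notes name FastQC, TopHat2 2.1.0 and mm10 without roles. The authors' tables, per the file headers, hold FPKM per group, a log2 fold change, and p-values and q-values per locus. The labels name 2 library kits of 1 maker, without saying which library had which.

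Transcripts were assigned to 1 gene each of GENCODE M21 (GRCm38, 55450 genes) by shared introns, or for single exons by at least 50% exon overlap. Abundances were summed per gene and scaled by median of ratios over 13271 genes. Genes listed above 0 in 3 or more libraries entered limma 3.58.1 (4 group means, eBayes with trend) on log2(level + 0.9) with Benjamini-Hochberg adjustment, and the script was tested on simulated data. Permutation tests were exact for groups and drew 100000 permutations for pairs. Each table column was matched to a group by its values over 10994 loci, with each source centred on its own mean, and the closest group was the named one in all 8 columns. Named were the 10 members, Kmt2d, Kdm1a, the 3 most abundant genes of a list or its called genes, the 5 genes most like the members (1 of which is not reported here), and the 3 highest and 3 lowest pairs. The fixed-length and read-through alternatives, and those without 2 or 4 libraries high in choroid plexus genes, were added after seeing the data.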

Additional observations from a re-analysis of the deposited data

Results flagged for a closer look

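In the wild-type TAK-418 group of 5, each member's most extreme library was compared with the others by Dixon's gap test, on scaled abundance and on the fixed-length value, 20 tests in all. Chance gives about 1 in 20. Fgfr3 in wild-type TAK-418 library 1 stood apart on both scales, at 27.7 against 29.9 for the nearest library, and at 26.4 against 29.4 per fixed length. The gap over the range was 0.715 and 0.717, just past the critical value of 0.71. Both scales concern the same gene and library. Over all 14 libraries Fgfr3 ranged from 26.1 to 36.1, and per fixed length from 26.4 to 36.4. Aldoc in the same library is listed at 0 on both scales (0.0), where the transcript was joined with downstream exons. This library was the most deeply sequenced one.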

How the results depend on the processing

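No member was called in any of the 7 contrasts under any alternative, each replicate left out included, and the smallest limma adjusted p of a member was 0.419. Of 1923 recomputed member differences, 122 had the other sign. S100b for the genotype main effect was -0.0877 per fixed length, against 0.63. Aldoc for genotype under TAK-418 was -0.21 without wild-type TAK-418 replicate 1, the library that lists it at 0, against 1.60. It was 0.24 with the read-through transcript counted, 0.95 and 2.26 with the pseudocount times 10 and divided by 10, and -0.21 to 2.07 with 1 replicate left out. Sox9 turned sign for genotype under vehicle without the 4 libraries high in choroid plexus genes (0.0197, and -0.17 to 0.0648 with 1 replicate left out). For TAK-418 in mutants it was 0.0298 with the highest transcript, 0.0228 with multi-exon transcripts, 0.29 per fixed length and 0.0169 without the 2 choroid-rich libraries (-0.0858 to 0.0271). For the genotype main effect it was -0.0305 without scaling and -0.11 per fixed length (-0.0152 to 0.10), and for the TAK-418 main effect 0.0340 per fixed length. Counts of called genes over all genes were small and moved as follows, and the cause was not tested. For genotype under vehicle, 0 became 1 with the pseudocount divided by 10, no filter, the highest transcript only, no trend or a fixed length, 5 without the 2 choroid-rich libraries and 6 with only the groups compared, and ran from 0 to 6 with 1 replicate left out. For TAK-418 in mutants, 1 became 2 with either pseudocount, no filter, no trend or a fixed length, 0 with genes in all libraries or multi-exon transcripts only, 7 without the choroid-rich libraries and 17 with only the groups compared (1 to 8 with 1 left out). For TAK-418 in wild types, 0 became 4 with the smaller pseudocount, 2 with no filter, no trend or a fixed length, 3 with the highest transcript, 1 without the choroid-rich libraries and 7 with only the groups compared (0 to 2 with 1 left out). For genotype under TAK-418, 2 became 4 with the smaller pseudocount or no trend, 1 with no scaling, upper quartile scaling, genes in all libraries or a fixed length, 5 with no filter, 7 with the highest transcript and 0 with multi-exon transcripts (1 to 7 with 1 left out). For the genotype main effect, 1 became 2 with the smaller pseudocount, no filter or no trend, 0 with genes in all libraries or multi-exon transcripts and 4 without the choroid-rich libraries (0 to 4). For the TAK-418 main effect, 2 became 4 with the smaller pseudocount, 1 with no scaling or the highest transcript, 0 with genes in all libraries or multi-exon transcripts and 7 with a fixed length or without the choroid-rich libraries (1 to 7). For the interaction, 1 became 2 with no filter, 0 with genes in all libraries or multi-exon transcripts, 3 with no trend and 5 without the choroid-rich libraries (0 to 8). Correlated member pairs numbered 20 without scaling, 3 with the highest transcript and 1 on deviations from group means, against 0, and 0 to 2 with 1 replicate left out. Without the 4 libraries high in choroid plexus genes, the called genes numbered 39 for genotype under vehicle, 41 for TAK-418 in mutants, 9 for TAK-418 in wild types, 7 for genotype under TAK-418, 30 for the genotype main effect, 26 for the TAK-418 main effect and 30 for the interaction, none a member. No paired analysis was possible because the labels give no replicate numbers that the groups share. The depth of counting per gene is not given by the assembled values, and the number of libraries limits the precision.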

Other observations

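Aldh1l1 was assembled in all 14 libraries as 2 structures of 23 exons that share every exon but differ in the end of the first. The share of the longer form was 34.9% to 41.5% in mutant TAK-418 libraries, 14.02% to 47.6% in mutant vehicle, 33.7% to 74.6% in wild-type vehicle and 13.1% to 82.5% in wild-type TAK-418 libraries, and the groups overlapped. The summed Aldh1l1 level varied far less, with a coefficient of variation of 5.50%. Aqp4 had a second exon structure in 10 of 14 libraries, at 5.37% to 14.7% of its abundance. It was assembled in 3 mutant TAK-418, 2 mutant vehicle, 4 wild-type TAK-418 and 1 wild-type vehicle libraries.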
